A study of Zea mays with 24 samples.

Results

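Heat shock proteins are molecular chaperones that keep other proteins folded. Small heat shock proteins bind unfolding proteins and hold them in solution, HSP70 proteins refold clients with ATP, and HSP101 pulls proteins back out of aggregates. In plants many of these genes are kept low in unstressed leaves and are induced strongly by heat, and some HSP70 genes are also active without stress. Here their transcripts were read on an early maize array made by Affymetrix. Each probe set of that array, a group of short oligonucleotides, gives the brightness of 1 transcript sequence as a linear signal. Probe sets were taken where the platform's gene symbol, or a synonym in the maize reference gene table, starts with hsp and a number. That gave 12 probe sets for 6 genes, of 579 named genes tested and of 8346 tested probe sets, 852 of which had a gene symbol.

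The inbred maize lines B73, Mo17, W23 and Wf9 were sampled as leaves of greenhouse plants, and the labels name no treatment. Leaves 3, 4 and 5 of 6 to 10 plants were pooled for each RNA, so a value is an average over plants, and fewer cells of a type cannot be told apart from less RNA per cell. Growth, harvest and RNA extraction were done 3 times for each line, numbered 1 to 3, and each of the 12 RNAs was hybridised to 2 arrays. The labels do not state that replicates with the same number in different lines were grown together, or at what temperature any were grown.

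Among the genes of small heat shock proteins, hsp18f had 3 probe sets (Zm3.16504.1.A1_x_at, Zm3.16504.1.A1_at and Zm1.14408.1.A1_at). hsp18a had 4 (Zm1.311.1.A1_at, Zm3.311.1.A1_at, Zm3.311.1.A1_x_at and Zm3.16504.2.A1_at), and hsp22, which encodes a mitochondrial small heat shock protein, had 1 (Zm3.369.1.A1_at). The disaggregase gene hsp101 had 2 (Zm1.438.1.S1_at and Zm3.438.1.A1_at), and the HSP70 genes hsp70-5 and hsp70-4 had 1 each (Zm3.3081.1.A1_at and Zm3.4805.1.A1_at). The suffix _x_at, on 1 probe set of hsp18f and 1 of hsp18a, marks probes shared with other sequences, so that the signal can hold more than 1 transcript. A probe set of each of these genes also carries the same cluster number in its name (Zm3.16504.1 and Zm3.16504.2). For 10 of the 12 probe sets the name came from a gene in the reference table. The names hsp70-4 and hsp70-5 are those of the platform table, since its gene numbers for them had no entry there.

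Array quality touches some results. B73 replicate 3 array 1 held all 213 exact zeros of the table, which were treated as missing, and stood apart from its technical partner. The SD of log2 differences between its 2 arrays over 3359 bright probe sets was 0.820, against 0.0919 to 0.212 in the other 11 RNAs. W23 replicates 2 and 3 differed from each other by an SD of 0.175, whereas other pairs of replicates of a line differed by 0.372 to 0.767. These SDs between replicates are of means of 2 arrays, with B73 replicate 3 taken from array 2 alone. Such means are less noisy than single arrays, so 0.175 cannot be set directly against the technical range. Results are given with and without these samples where that matters. Leaf markers were bright. Of 20 probe sets for Rubisco small subunit, C4 enzymes, light harvesting proteins, ferredoxins and Rubisco activase, 19 were above background in every RNA. Of 13 seed probe sets 11 were at or below background in every RNA and 1 was above it in every RNA. Of 5 pollen probe sets 1 was at or below background in every RNA and 2 were above it in every RNA. The root probe set, zrp4, ranged from 8.449 to 75.89 over the RNAs.

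The 6 genes differed widely in signal. A background level of 16.7 was set by 44 control probe sets whose transcripts were not added. hsp70-4 (1110 to 3666) and hsp70-5 (753 to 3160) were above it on all 24 arrays. The brighter hsp101 probe set was above it on 23 arrays and the brightest hsp18a probe set on 20. The hsp22 probe set was above it on only 12 arrays and the hsp18a probe set Zm3.16504.2.A1_at on 4. Signals of different probe sets are not comparable as transcript amounts.

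**Figure D1:**
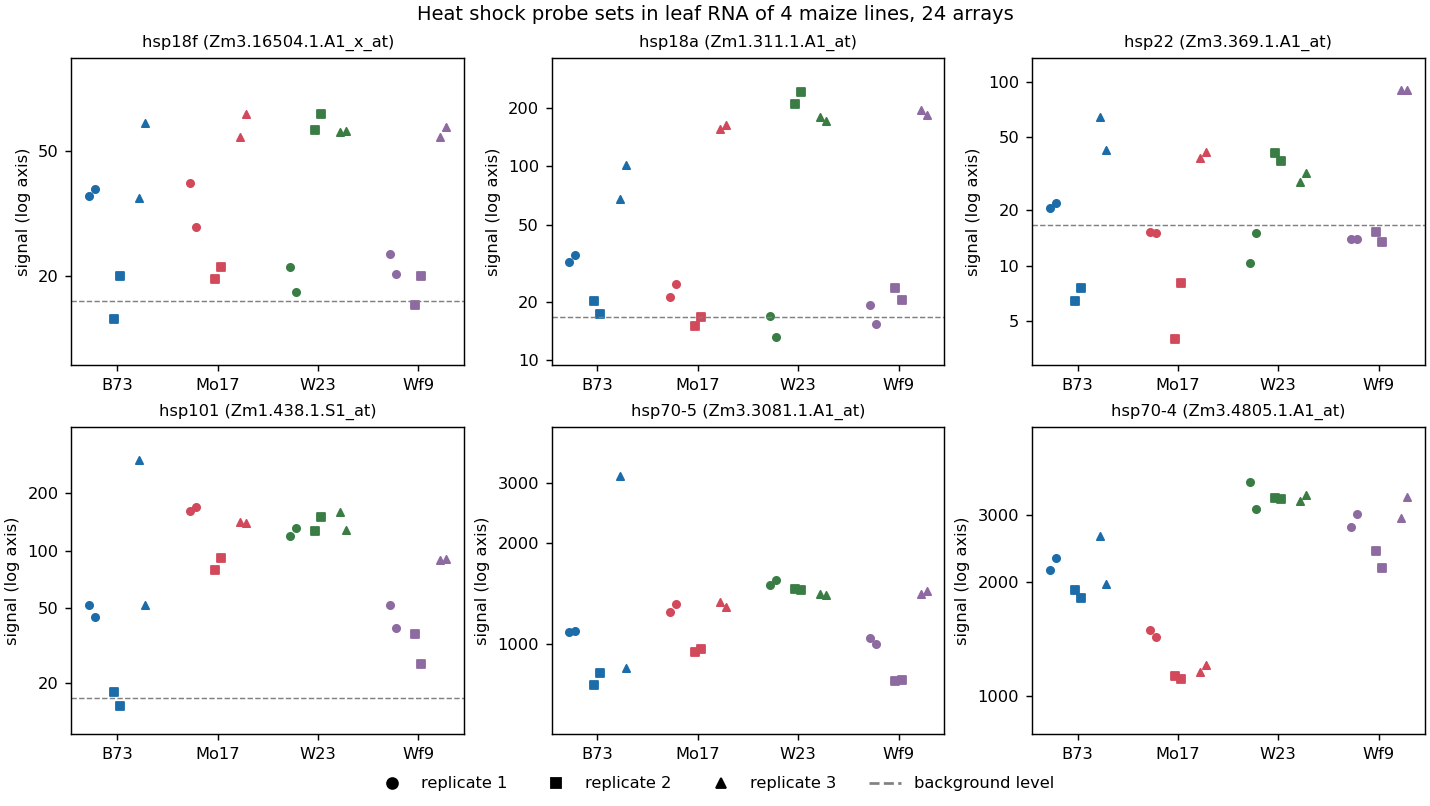
Signal on a log axis of the brightest probe set of each heat shock gene on the 24 arrays, grouped along the x axis by line. Each point is an array, the marker shape gives the biological replicate, and the dashed line is the background level of 16.7. The small heat shock genes (hsp18f, hsp18a, hsp22) were high in replicate 3 of B73, Mo17 and Wf9 and replicates 2 and 3 of W23. For hsp70-4 all Mo17 arrays were lowest, and arrays of Wf9 overlapped those of B73 and of W23.

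The small heat shock genes were high in some replicates of each line and low in others. For hsp18a (Zm1.311.1.A1_at), the signal in replicates 1, 2 and 3 was 33.5, 18.8 and 84.6 in B73. It was 22.9, 15.8 and 159 in Mo17, and 17.3, 22 and 189 in Wf9. In W23 it was 15.1, 224 and 175. Replicate 3 was thus highest in B73, Mo17 and Wf9, and in W23 replicates 2 and 3 were both high. With the background level as a floor, replicate 3 over replicate 2 was 4.50-fold in B73, at least 9.53-fold in Mo17 and 8.57-fold in Wf9, and 0.780-fold in W23. Replicate 2 over replicate 1 was at least 13.4-fold in W23.

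hsp18f had the same highest replicate as hsp18a in each line. Its brightest probe set (Zm3.16504.1.A1_x_at) had 36.9, 17.3 and 48.3 in B73 replicates 1, 2 and 3, and 34.0, 20.5 and 60.6 in those of Mo17. It had 22, 18.1 and 57.3 in Wf9 and 19.6, 61.8 and 57.6 in W23. Replicate 3 over replicate 2 was 2.79-fold in B73, 2.95-fold in Mo17 and 3.16-fold in Wf9, and 0.932-fold in W23. The probe set Zm3.16504.1.A1_at, which has no suffix of shared probes, had the same highest replicate in every line, with 55.7 in B73, 52.2 in Mo17 and 52.3 in Wf9, all replicate 3, and 63.3 in W23 replicate 2. The 2 arrays of B73 replicate 3 read 35.4 and 61.2 for Zm3.16504.1.A1_x_at, and array 1 was below the 35.9 and 37.8 of the B73 replicate 1 arrays.

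hsp22, the mitochondrial small heat shock protein gene, had 21.3, 7 and 53.7 in replicates 1, 2 and 3 of B73 and 15.1, 6 and 40.2 in those of Mo17. It had 14.0, 14.3 and 90.2 in Wf9, the highest value of the gene, and 12.7, 39.0 and 30.3 in W23. It was therefore at or below background in 6 of the 12 RNAs and above it in the other 6. The 5 RNAs with the highest signal were the same for the brightest probe sets of hsp18f, hsp18a and hsp22, namely replicate 3 of B73, Mo17 and Wf9 and replicates 2 and 3 of W23. For hsp18a the lowest of these 5 had 84.6 and the highest of the other 7 RNAs had 33.5. For hsp18f the values were 48.3 and 36.9, and for hsp22 30.3 and 21.3. This split was read from the values themselves, and its share among all tested probe sets was not counted. The likeness of W23 replicate 2 to replicate 3 of the other lines was not particular to these genes. Over 3359 bright probe sets and without B73 replicate 3 array 1, their values minus line means correlated at 0.462 to 0.747. The hsp18f probe set Zm1.14408.1.A1_at did not split this way, since W23 replicate 3 had 22.6, below the 25.3 of B73 replicate 1 and the 22.9 of Mo17 replicate 1.

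The spread within lines was large beside that of most probe sets. The within-line SD of log2(signal + 16) was 1.34 for the brightest hsp18a probe set, at the 99.8th percentile of all 8346 tested probe sets, 0.78 for hsp22 (97.8th percentile) and 0.56 for hsp18f (94.1st percentile). The SD between technical arrays, without B73 replicate 3, was 0.09, 0.09 and 0.11 for these probe sets. Over all 12 heat shock probe sets the median within-line SD was 0.57 and the median technical SD 0.10. Over all tested probe sets the medians were 0.20 and 0.12. Probe sets of the same gene moved together, with a Pearson correlation of line-centred values over the 12 RNAs of 0.920 to 0.975 within hsp18f and 0.988 to 0.998 among the 3 brighter hsp18a probe sets, which may share probes. The dim hsp18a probe set Zm3.16504.2.A1_at, at or below background in 9 of 12 RNAs, had a within-line SD of 0.22.

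**Figure D2:**
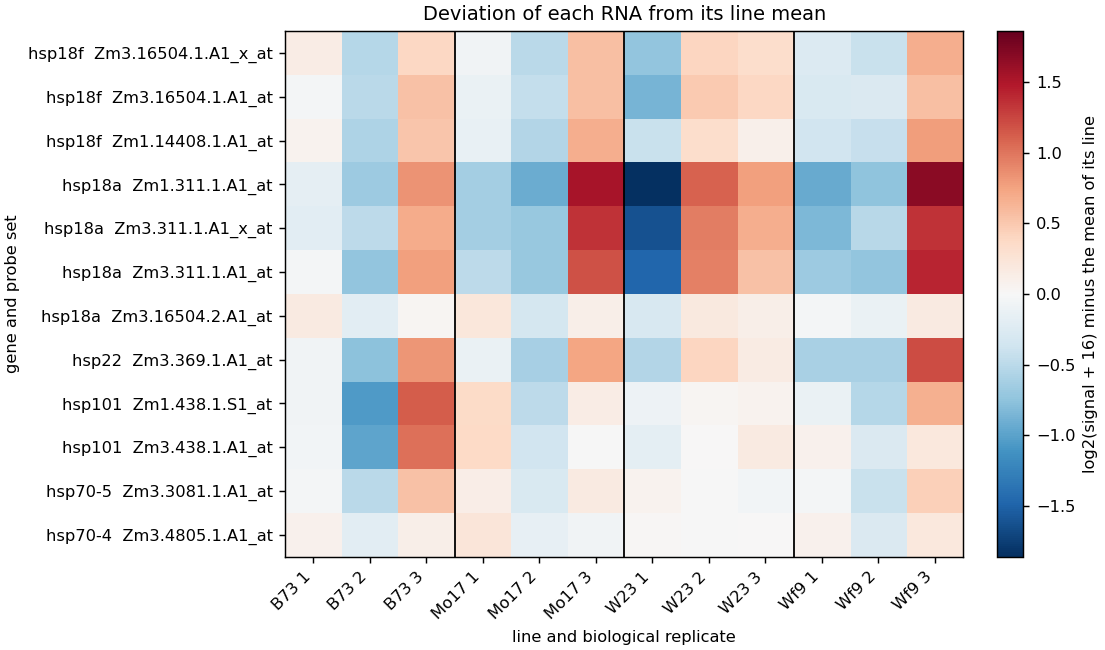
Colour map of log2(signal + 16) of each heat shock probe set (rows) in each RNA (columns, by line and replicate) minus the mean of its line. Red is above and blue below the line mean. Replicate 3 of Mo17 and Wf9 and replicate 1 of W23 show the strongest colours for hsp18a, and the 5 RNAs named for the small heat shock genes are above their line means in the rows of hsp18f and hsp22 too.

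hsp101 and hsp70-5 followed replicate numbers in part. The brighter hsp101 probe set (Zm1.438.1.S1_at) had 48.1, 16.5 and 176 in B73 replicates 1, 2 and 3, 166, 85.2 and 140 in Mo17, 125, 139 and 144 in W23 and 45.5, 30.7 and 89.4 in Wf9. Replicate 2 was lowest in B73, Mo17 and Wf9. W23 varied little, and the high replicate of Mo17 was replicate 1. The B73 replicate 3 value rests on array 1, which read 299.5 where array 2 read 51.7, and the second hsp101 probe set split the same way, with 289 and 45.6.

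hsp70-5 had 1086, 785 and 2004 in replicates 1, 2 and 3 of B73, 1276, 954.5 and 1309 in those of Mo17, 1522, 1447 and 1404 in W23 and 1017, 776 and 1420 in Wf9. Again the B73 replicate 3 value came from arrays that disagreed, with 3160 on array 1 and 848.5 on array 2. The largest technical difference of hsp70-5 in the other 11 RNAs was 0.11 on the log2 scale, against 1.88 in B73 replicate 3. Without array 1, replicate 3 of B73 lay between replicates 2 and 1.

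A limma F-test of the replicate number, with line as a second term, asked whether same-numbered replicates deviated together across lines. With all 12 RNAs, 0 of 8346 probe sets (0%) passed an adjusted p of 0.05 (Benjamini-Hochberg), and 0 of the 12 heat shock probe sets did. Before adjustment, 1551 probe sets (18.6%) and 9 of the 12 had p under 0.05. The adjusted p was 0.201 for hsp18a, 0.201 for hsp22 and 0.228 for hsp18f (brightest probe sets). Replicate number 3 minus number 2 over the 4 lines was 1.52 ± 0.50 (SE) for hsp18a, 1.12 ± 0.30 for hsp22 and 0.75 ± 0.25 for hsp18f on the log2 scale.

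The count of 0 changed with W23 replicate 2 and with how arrays were weighted. With every RNA kept, fitting the 24 arrays with the RNA as a random block called 1188 probe sets, 7 of them heat shock probe sets. That fit used the same correlation between the 2 arrays of an RNA for all probe sets. Where RNAs differed far more than technical arrays, as for hsp18a (SD 1.34 against 0.09), it counts arrays in part as replicates. Its p-values there can be too small. Array weights called 633 and 7. Without line W23, 408 probe sets (4.89%) passed the F-test and so did 7 of the 12 heat shock probe sets. Those 7 were the 3 of hsp18f, the 3 brighter of hsp18a and the one of hsp22. Without W23 replicate 2 alone, 828 probe sets passed (9.92%), and 9 of the 12, now with hsp70-5 and the brighter hsp101 probe set. In that fit number 3 minus number 2 was called higher for 9 of the 12 (8.32% of all tested higher, 4.57% lower), and number 3 minus number 1 for 7 (3.22% higher, 3.07% lower). Leaving out B73, Mo17 or Wf9 in place of W23 left 0 calls.

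In B73, Mo17 and Wf9, number 3 minus number 2 was called higher for 9 of the 12 heat shock probe sets, against 524 of all tested (6.28%), and lower for 0, against 266 (3.19%). The median over the 12 was 1.10 on the log2 scale and that over all tested probe sets was -0.02. hsp18a rose by 2.13 ± 0.28 (adjusted p = 0.0101), hsp22 by 1.58 ± 0.20 (adjusted p = 0.0101) and hsp18f by 1.03 ± 0.16 (adjusted p = 0.0125). hsp70-5 rose by 0.79 ± 0.15 (adjusted p = 0.0209). The brighter hsp101 probe set rose by 1.33 ± 0.30 (adjusted p = 0.0341), and the second had 0.94 ± 0.32 and did not pass (adjusted p = 0.115). hsp70-4 differed by 0.28 ± 0.13 and did not pass (adjusted p = 0.230). Number 2 minus number 1 gave 0 calls among the 12, with a median of -0.35, and 0 of all tested. Number 3 minus number 1 gave 0 calls among the 12 as well, with a median of 0.66, and 14 of all tested were called higher (0.168%) and 11 lower (0.132%).

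The small heat shock genes also passed without B73 replicate 3 array 1, while hsp70-5 did not. Without W23 and without that array, 8 of the 12 probe sets passed the F-test, against 717 of all tested (8.59%). hsp18a number 3 minus number 2 was then 2.22 ± 0.24, hsp22 1.5 ± 0.21 and hsp18f 1.13 ± 0.13, each past the threshold (adjusted p of 0.00520, 0.00680 and 0.00535). The brighter hsp101 probe set had 0.96 ± 0.20 (adjusted p = 0.0206), and the second had 0.55 ± 0.15 and did not pass (adjusted p = 0.0573). hsp70-5 had 0.47 ± 0.16 and no longer passed (adjusted p = 0.108). Number 3 minus number 2 was called higher for 8 of the 12 (8.53% of all tested higher, 4.43% lower). Number 3 minus number 1 was called higher for 7, against 113 of all tested (1.35%), with 65 lower (0.779%). Number 2 minus number 1 was called for 0, with 0.0719% of all tested higher and 0.0120% lower.

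**Figure D3:**
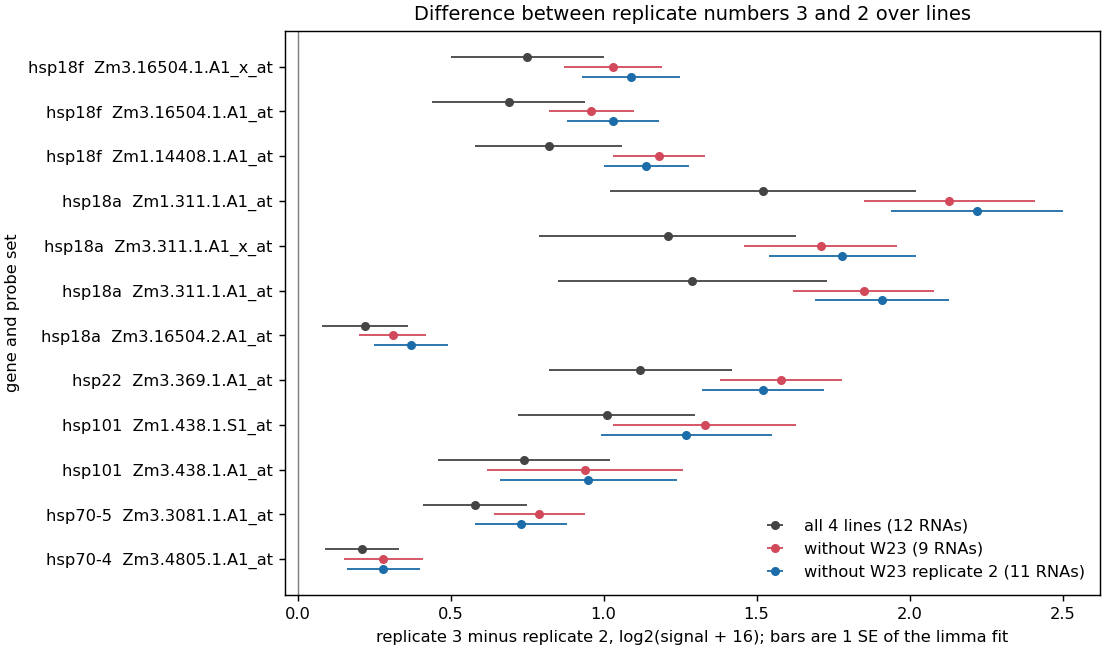
Difference of replicate number 3 minus number 2 in log2(signal + 16) for each heat shock probe set (rows), fitted over all 4 lines, without W23, and without W23 replicate 2 only. Bars are 1 SE. All 12 differences were above 0 in all 3 fits, from 0.21 to 2.22, and SEs of the small heat shock genes were smaller without W23 replicate 2.

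Replicate 3 was the highest replicate in each of B73, Mo17 and Wf9 for 8 of the 12 probe sets, against 913 of all tested (10.9%). Both counts used both arrays of B73 replicate 3. The 8 were those of hsp18f, the brighter ones of hsp18a, hsp22 and hsp70-5, and probe sets of the same gene moved together. For hsp70-5, array 2 of B73 replicate 3 alone read 848.5, below the 1086 of B73 replicate 1. The 4 of the 12 not counted were both hsp101 probe sets, the dim hsp18a probe set and hsp70-4. Leaf marker signal also differed between replicates. The summed signal of the 20 leaf probe sets in replicates 1, 2 and 3 was 111200, 125700 and 65970 in B73, 136300, 126200 and 104100 in Mo17 and 118400, 140600 and 88910 in Wf9. In W23 it was 135400, 109000 and 119500. It was lowest in replicate 3 of B73, Mo17 and Wf9 and in replicate 2 of W23, and its part in the heat shock result was not tested. The ratio of 3' to 5' signal of the elongation factor control, a measure of RNA integrity, was also lowest in replicate 3 of B73, Mo17 and Wf9, at 1.13, 1.24 and 1.26, against 1.35 to 1.67 in their other replicates. In W23 it was 1.36, 1.37 and 1.47. The cyclophilin ratio had the same lowest replicates in those lines, at 1.47, 1.53 and 1.4. So did 1 GAPDH ratio, at 1.54, 1.43 and 1.78. Another GAPDH ratio did so in B73 and Mo17, but in Wf9 it was 1.81 in replicate 3 and 1.78 in replicate 2. The ubiquitin ratio was lowest in replicate 3 of Mo17 and Wf9, at 1.41 and 1.56. In B73 replicate 3 the ubiquitin ratio was higher than in any other RNA. The part of these ratios in the result was not tested.

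Between lines, hsp70-4 was the heat shock gene that passed the test. Its signal was 2232, 1856 and 2307 in B73, 1460, 1118 and 1182 in Mo17, 3392, 3317 and 3332 in W23 and 2904, 2286 and 3149 in Wf9 (replicates 1, 2 and 3). The Mo17 RNAs were all below those of every other line and the W23 RNAs all above them. Single arrays of Wf9 and W23 overlapped, with 3355 on Wf9 replicate 3 array 2 and 3118 on W23 replicate 1 array 2. How many of all tested probe sets separate a line in this way was not counted. The means (± SD, n = 3 each) were 2132 ± 241 for B73, 1253 ± 182 for Mo17, 3347 ± 39.9 for W23, and 2780 ± 444 for Wf9. The order from low to high was Mo17, B73, Wf9 and W23.

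In limma's F-test over the 4 lines, the adjusted p of hsp70-4 was 0.000233, and it was the only one of the 12 probe sets to pass, against 2549 of all tested (30.5%). Of 6 pairwise contrasts 4 passed. Mo17 was lower than W23 by a log2 difference of -1.41 ± 0.17 (adjusted p = 9.51e-05, against 13.9% of all tested called in that contrast) and lower than Wf9 by -1.13 ± 0.17 (adjusted p = 0.000608, 16.3% called). B73 was higher than Mo17 by 0.76 ± 0.17 (adjusted p = 0.00948, 14.7% called), and lower than W23 by -0.66 ± 0.17 (adjusted p = 0.0192, 16% called). The other contrasts called 14.5% (B73 minus Wf9) and 15.3% (W23 minus Wf9) of all tested, and not hsp70-4. Neither pair of neighbours at the upper end, B73 with Wf9 (adjusted p = 0.166) and W23 with Wf9 (adjusted p = 0.336), differed beyond its spread. The B73 difference from W23 was lost under 6 of 23 alternatives and that from Mo17 under 1. Leaving out W23 replicate 1, 2 or 3 lost the B73 difference from W23 (adjusted p of the contrast 0.0556, 0.0618 and 0.0635). So did averaging the alike W23 replicates 2 and 3 (adjusted p = 0.0635). Sequence differences between the lines under the probes can also alter a signal, which was not tested.

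Whether hsp101 passed depended on B73 replicate 3 array 1 and on other choices. With all arrays the adjusted p of its 2 probe sets was 0.0945 and 0.123. Without that array it was 0.00758 and 0.0141, when 3 of the 12 probe sets were called, against 33.1% of all tested. The 3 were these 2 and hsp70-4. With all arrays kept, array weights gave 0.000405 and 0.000719, the replicate number as a block gave 0.023 for Zm1.438.1.S1_at, and leaving out B73 replicate 2 gave 0.0155 for Zm3.438.1.A1_at. In the fit without the array Zm1.438.1.S1_at had 38.8 ± 19.4 for B73, 130 ± 41.1 for Mo17, 136 ± 9.51 for W23, and 55.2 ± 30.5 for Wf9 (SD, n = 3 each). Its log2 difference was -1.54 ± 0.34 for B73 minus W23 (adjusted p = 0.00837, 17.9% of all tested called) and 1.18 ± 0.34 for W23 minus Wf9 (adjusted p = 0.0348, 17.1% called). Mo17 minus Wf9 passed for both probe sets, at 1.09 ± 0.34 (adjusted p = 0.0483) and 0.82 ± 0.26 (adjusted p = 0.0496), where 17.9% were called. The second probe set passed for W23 minus Wf9, at 1.24 ± 0.26 (adjusted p = 0.0057), but not for B73 minus W23, at -0.80 ± 0.26 (adjusted p = 0.0541), or for B73 minus Mo17 (15.8% called), at -0.38 ± 0.26 (adjusted p = 0.384) against -1.45 ± 0.34 (adjusted p = 0.0130) for the first. In the same fit hsp70-5 passed in 1 contrast, B73 minus W23, at -0.69 ± 0.22 (adjusted p = 0.0464).

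The small heat shock genes and hsp70-5 did not pass the F-test of lines with all arrays weighted equally. The adjusted p was 0.768 for hsp18a, 0.865 for hsp18f, 0.904 for hsp22 and 0.503 for hsp70-5. Array weights, under which 5424 of all tested passed, gave 0.015 for hsp18a, 0.042 for hsp18f and 0.0337 for hsp70-5 (brightest probe sets). For hsp22 they gave 0.357, which did not pass. Means of hsp18a (± SD, n = 3 each) were 45.6 ± 34.6 for B73, 66 ± 80.8 for Mo17, 138 ± 109 for W23, and 76 ± 97.6 for Wf9, so the SD was above the mean in Mo17 and Wf9. The order was B73, Mo17, Wf9 and W23, and neighbours did not differ beyond their spread.

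Other protein folding genes were counted as a list by gene symbol. It held 10 probe sets of 8 genes, with calnexin and calreticulin, which fold glycoproteins in the endoplasmic reticulum, the BiP genes bip1 and bip2, HSP70 proteins of the same compartment, 3 protein disulfide isomerase genes and the mitochondrial chaperonin CPN60II. Of the 10, 0 passed the F-test of lines, against 30.5% of all tested, and 1 (pdi) had an unadjusted p under 0.05, against 3419 of all 8346 tested. The smallest p values there were those of pdi (adjusted p = 0.0561), CPN60II (adjusted p = 0.137) and pdi6 (adjusted p = 0.156). With all 12 RNAs 0 passed the F-test of replicate number, 9 having an unadjusted p under 0.05 (18.6% of all tested), and without W23 7 passed, beside 4.89% of all tested. These 7 were both calnexin and both calreticulin probe sets, bip1, bip2 and CPN60II. The smallest p values with all RNAs were those of calnexin (Zm1.2862.1.A1_x_at), calreticulin (Zm3.1288.3.S1_at) and bip2, each with an adjusted p of 0.201, and without W23 their adjusted p was 0.026, 0.026 and 0.0445.

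bip1 (Zm3.280.1.A1_at), chosen after its values were seen because its pattern was the most like hsp18f, had 156, 111 and 289 in replicates 1, 2 and 3 of B73, 90.5, 68.7 and 145 in those of Mo17, 97.1, 224 and 192 in W23 and 96.9, 89.5 and 277 in Wf9. Within each line, the order of its RNAs was that of the hsp18f probe set Zm3.16504.1.A1_x_at, to which it was picked as most alike. For Zm3.16504.1.A1_at the lowest RNA of Wf9 was replicate 1, and for bip1 it was replicate 2. The calnexin probe set Zm1.2862.1.A1_x_at, whose suffix marks shared probes, had 440, 437 and 1180 in B73, 529, 488 and 889 in Mo17, 359, 649 and 611 in W23 and 533, 543 and 1170 in Wf9, with replicate 3 high in B73, Mo17 and Wf9. bip2 (Zm3.395.1.A1_at) had 219, 113 and 537 in B73, 278, 230 and 381 in Mo17, 174, 289 and 327 in W23 and 219, 199 and 639 in Wf9. For bip1 number 3 minus number 2 was 1.13, for bip2 1.46 and for that calnexin probe set 1.1 on the log2 scale without W23.

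**Figure D4:**
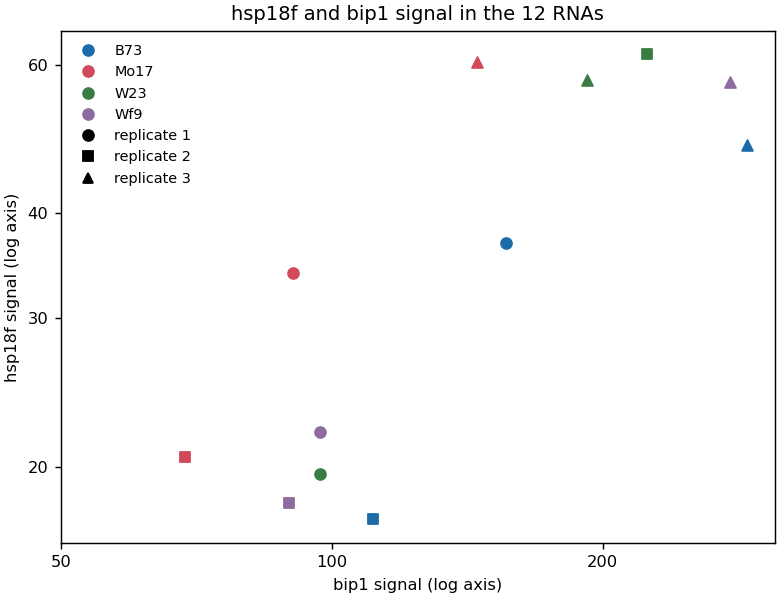
Signal of hsp18f (Zm3.16504.1.A1_x_at, y axis) against that of bip1 (Zm3.280.1.A1_at, x axis) in the 12 RNAs, both on log axes, each point the mean of 2 arrays. Colour gives the line and marker shape the replicate number. Replicate 3 of B73, Mo17 and Wf9 and replicates 2 and 3 of W23 lie at 48.3 or more for hsp18f and the other 7 RNAs at 36.9 or less.

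The genes most like the heat shock genes were sought among named probe sets above background on all arrays, by Pearson's r of line-centred values over the 12 RNAs. The RNAs fall into 2 sets for the small heat shock genes, and each RNA is 1 pool of leaves, so r is given as a description. For hsp18f the 3 highest were bip1 (r = 0.970), calreticulin (r = 0.962) and dbf1, a DRE-binding transcription factor (r = 0.961). For hsp22 they were bip1 (r = 0.979), gst5, a glutathione transferase (r = 0.963), and calreticulin (r = 0.959). For hsp18a they were bip1 (r = 0.958), RP-P0, an acidic ribosomal protein (r = 0.955), and EF1A, a translation elongation factor (r = 0.952). For hsp101 they were vdac2, a channel of the outer mitochondrial membrane (r = 0.984), mha4, a proton pump of the plasma membrane (r = 0.971), and hsp70-5 (r = 0.967). Without B73 replicate 3 array 1 these were 0.891, 0.889 and 0.841.

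For hsp70-5 the highest were vdac2 (r = 0.991), pdh1 (r = 0.970), and In2-1, a gene induced by herbicide safeners (r = 0.957). Those values rest on 1 array, since r was 0.613, 0.444 and 0.508 without B73 replicate 3 array 1. For hsp70-4 they were LOC541942 (r = 0.949), LOC541936 (r = 0.909) and gst23, a glutathione transferase (r = 0.896), and r was 0.942, 0.896 and 0.673 without that array. For hsp18f and bip1 it was 0.943 without the array. Of the 12 nearest genes of the other 4 heat shock genes, 4 were kept when that array was left out and 3 when Spearman's rho was used.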

How the data were processed

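Signal of a pilot maize GeneChip was measured in leaf RNA of 4 lines, 3 biological replicates each, on 24 arrays. The authors deposited 1 table of probe set signals, intensities on a linear scale made with MAS5 in GCOS, per the submitters' processing notes, and scaled per array (the trimmed mean was 250.15 to 250.24). Their versions are not stated in the labels or notes.

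Zeros were set missing, arrays were brought to a common 2% trimmed mean, and 129 control probe sets were dropped. Values were analysed as log2(signal + 16), so differences of dim probe sets are understated. Log2 values of the 2 arrays of an RNA were averaged. Folds and printed signals of an RNA use the mean linear signal, and folds use the background level (the 99th percentile of unspiked controls) as a floor, "at least" marking a floored value. limma 3.58.1 in R 4.3.3 (lmFit, eBayes with a mean-variance trend) fitted line, or line and replicate number, with Benjamini-Hochberg adjustment over 8346 probe sets. The tests were run on simulated data with independent noise, which held no faulty array and no replicate resembling another number. Precision is limited by the number of RNAs, 3 per line, and p-values measure the spread between the replicates the labels name.

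All 12 members are reported. Folding genes were listed by symbol (hsf, bip, cpn, crt, cnx, dnaj, pdi, fkb and similar), with those of smallest p named. A list of ubiquitin and proteasome genes was not used here, because the tables carry no gene descriptions. Likeness covered named probe sets above background on all arrays. It was planned for hsp70-4 and hsp70-5, and extended to the 4 dimmer genes after seeing the data. Members and lists were chosen with earlier results of these data known. Alternatives varied the pseudocount, scaling, dim filter, array 1 of B73 replicate 3, technical arrays, weights, trend, replicates, lines and block.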

Additional observations from a re-analysis of the deposited data

Results flagged for a closer look

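For the brightest hsp18f probe set (Zm3.16504.1.A1_x_at), replicate 2 minus replicate 1 went opposite ways in the lines. Both W23 replicate 2 arrays were above both W23 replicate 1 arrays, and in B73, Mo17 and Wf9 both replicate 2 arrays were below both replicate 1 arrays. The W23 difference exceeded the mean of the other lines' differences by 1.55 on the log2(signal + 16) scale. With 1 RNA per line and number the difference was not tested. W23 replicates 2 and 3 differed by 0.08 for this probe set. The opposite direction in Wf9 was not seen with Zm3.16504.1.A1_at, for which replicate 2 minus replicate 1 was 0.02 in Wf9 and 1.35 in W23, with -0.47 in B73 and -0.31 in Mo17.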

How the results depend on the processing

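The hsp70-4 F-test of lines passed under all 22 alternatives, with adjusted p of 4.93e-08 to 0.00202. Its differences of Mo17 from W23 and from Wf9 passed under all 23. That of B73 from Mo17 missed with the 2 lines fitted alone (0.76, adjusted p = 0.0522), and that of B73 from W23 missed in 6 (adjusted p up to 0.0780).

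The lines test called 2549 probe sets, 1 of them among the heat shock probe sets, which had 4 calls over the 6 contrasts. Array weights gave 5424, 9 and 24. Leaving out B73 replicate 3 array 1 gave 3 heat shock probe sets and 11 contrast calls. Leaving out each replicate gave 2045 to 2806 probe sets, 1 to 3 heat shock probe sets and 3 to 10 contrast calls, and the 3 and the 10 came without B73 replicate 3. With the replicate block there were 2960 probe sets, 2 heat shock probe sets (hsp101 with adjusted p = 0.0230) and 8 contrast calls. The numbers did not pair all samples. Line-centred values over 3359 bright probe sets were correlated without B73 replicate 3 array 1. Same-numbered RNAs correlated at 0.246 to 0.617 in 15 pairs. But W23 replicate 2 correlated at -0.653 to -0.402 with replicate 2 of the other lines and at 0.462 to 0.747 with their replicate 3.

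The replicate number test called 0 probe sets, 0 heat shock probe sets and 0 of their contrast calls. With 24 arrays and the RNA as a random block it gave 1188, 7 and 14, from arrays counted in part as replicates. With array weights it gave 633, 7 and 15. Without W23 it gave 408, 7 and 9. Without W23 and B73 replicate 3 array 1 it gave 717, 8 and 15, and with W23 replicates 2 and 3 averaged as number 3 it gave 879, 9 and 16, both chosen after seeing the data. Leaving out each replicate gave 0 to 828, 0 to 9 and 0 to 16, the highest without W23 replicate 2 and 0 for the other 11. The other 9 alternatives gave 0. The cause was not tested. Of the 6 genes most like hsp70-4 and hsp70-5, 5 were kept with Spearman's rho, 2 with values centred on number too and 2 without that array. Signal near background limits hsp22 and hsp18f.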

Other observations

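The control probe sets for maize cyclophilin, a protein folding enzyme, and ubiquitin, which marks proteins for breakdown, were left out of all tests. The 3' cyclophilin probe set had 4995 in B73 replicate 3, 5761 in Mo17 replicate 3 and 5598 in Wf9 replicate 3, each the lowest of its line. The 3' ubiquitin probe set was likewise lowest in replicate 3 of those lines, at 3732, 4224 and 3661. In W23 both were lowest in replicate 2, at 5865 and 4211. These abundant transcripts did not have the high replicate 3 signal of the small heat shock genes.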
